A study of Mus musculus with 8 samples.

Results

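Immunoglobulin gene segments were measured by 29 probe sets of 35556 on the array. They were taken by gene symbol: each symbol of the platform annotation had to name a segment or constant region of the heavy chain (Igh), kappa (Igk) or lambda (Igl) locus. The symbol rule yields 30 probe sets, because Ighmbp2, which encodes a DNA and RNA helicase and is no immunoglobulin segment, fits the same pattern. It was kept apart, and all counts below are over the 29. Of these, 15 name 1 segment and 14 name several, up to 8. Together they name 29 segments, and 21 of the 29 probe sets name a segment that another of them names too, so they do not measure 29 separate transcripts.

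Expression was measured in bone marrow cells of C57BL/6J mice on 8 Affymetrix arrays, 2 for each of 4 groups: KLS cells of mice labelled ∆Hmga2 (TG in the titles), KLS cells of wild-type mice (WT), MEP cells of ∆Hmga2 mice and MEP cells of wild-type mice. KLS names the lineage-negative fraction positive for Sca-1 and c-Kit, in which the blood stem cells lie, and MEP the progenitors that give rise to megakaryocytes and red cells. Each RNA preparation pooled 4 or 6 mice, so an array reports the mean of a pool. The series is titled as an overexpression of HMGA2. The sources used here do not name the promoter of the transgene, its founder line, the age of the mice or the antibodies of the sorting gates.

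Antibody genes are assembled in developing B cells. The heavy chain locus, on mouse chromosome 12, joins a V, a D and a J segment in pro-B cells, the kappa locus on chromosome 6 and the lambda locus on chromosome 16 then join V to J, and the joined exon is spliced to a constant region, of which Ighm encodes that of IgM, Igha that of IgA and Ighg3 that of IgG3. The cut is made by the Rag1 and Rag2 recombinase. Unrearranged V segments and constant regions can also be transcribed, as germline transcripts, and a probe set does not separate these from rearranged ones. Of the 29 segments named, 20 lie in the kappa, 6 in the heavy chain and 3 in the lambda locus (RefSeq, GRCm38.p6, used for names, chromosomes and segment types). The reference used here holds a promoter sequence for 0 of them, and no segment sequence is shown.

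The levels are log2 values, so a difference of 1 is 2 fold. The deposited array medians lay between 6.34 and 6.45. Hmga2 itself was at 7.35 and 7.11 on TG KLS, against 6.85 and 7.12 on WT KLS arrays, and at 6.95 and 6.99 on TG MEP, against 6.70 and 6.74 on WT MEP arrays, on 1 probe set whose position relative to the transgene is not known here, so it does not check the genotype labels. The sorted populations were checked against marker genes. All 8 measured stem and multipotent progenitor markers were higher in KLS than in MEP cells, with a median log2 difference of 1.46. Of 10 megakaryocyte-erythroid markers 8 were lower, with a median of only -0.21. Ly6a, the gene of Sca-1, had no probe set naming it alone and was not among the measured markers. The WT MEP 1 array stood apart from the other MEP arrays in genes of early B cells: the mean log2 level of 12 pro-B and pre-B genes was 7.49 and 7.61 in TG MEP preparations, against 9.58 and 7.61 in WT MEP ones, the first of which also exceeded every KLS array (8.25 to 8.77). WT MEP 1 was also the highest MEP array in the mean of the stem and multipotent progenitor markers. It was at 7.28, against 6.65 and 6.72 on the TG MEP arrays and 6.66 on WT MEP 2. Differences in MEP cells are therefore also given without WT MEP 1, which leaves 1 WT MEP array. WT MEP 1 stood out in genes of the lineage that assembles antibody genes, so medians are also given without WT MEP 2. Which WT MEP array is the more typical is not known here.

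The immunoglobulin probe sets varied far more between arrays than the array as a whole. The median range of a probe set over the 8 arrays was 1.82 for the 29 and 0.60 for all 35556. A range above 1 was found for 24 of the 29 (82.8%), against 23.6% of all probe sets, and a range above 2 for 11 (37.9%), against 5.6%. The level was highest on a WT array for 20 of 29 (53.2% of all probe sets), on a KLS array for 25 (48.2%) and on 1 of the 2 WT KLS arrays for 17 (29.1%). Much of the spread lay between replicates. Between the 2 arrays of a group, 7 probe sets differed by more than 2 fold in TG KLS, 5 in WT KLS, 2 in TG MEP and 11 in WT MEP cells, where 4.49%, 5.93%, 4.78% and 3.83% of all probe sets did.

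**Figure D1:**
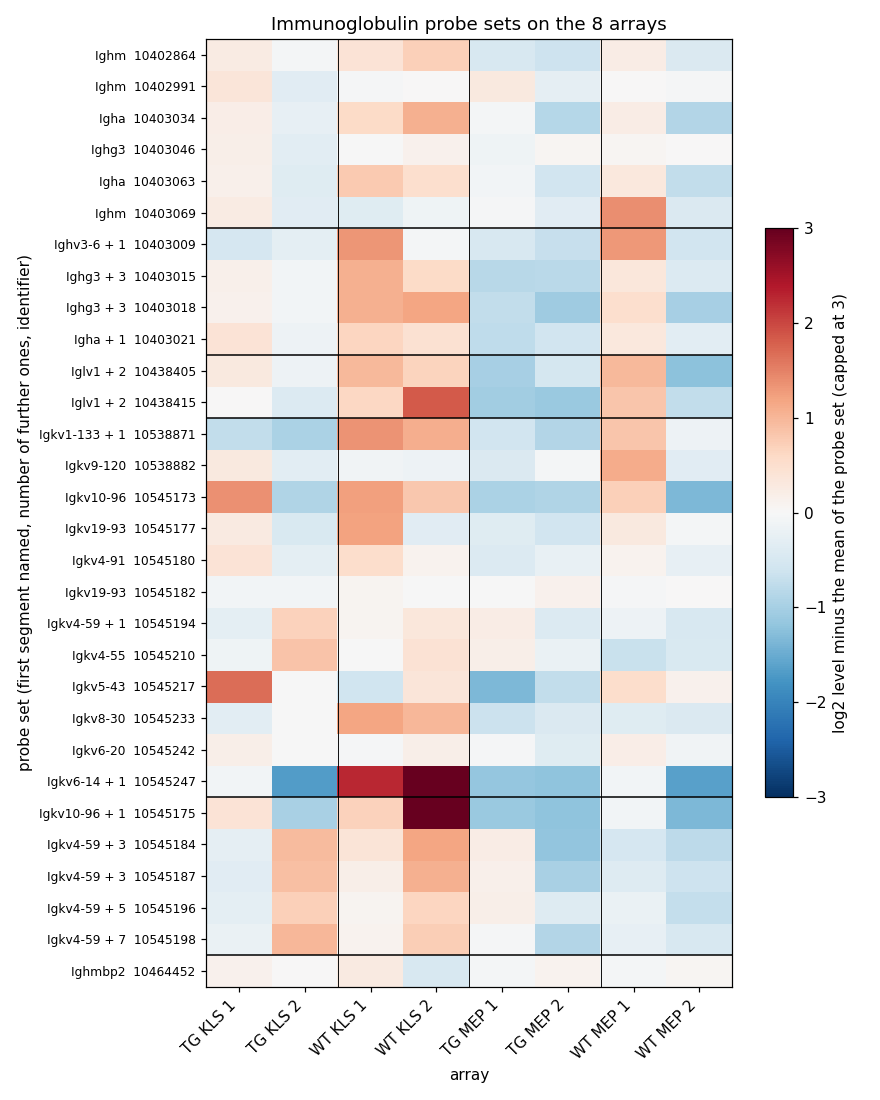
Log2 level of each of the 30 probe sets (rows) on each array (columns), minus the mean of that probe set over the 8 arrays, capped at 3 either way (red higher, blue lower). Rows are grouped by horizontal lines into heavy chain constant regions, heavy chain probe sets that name V and constant segments, lambda, kappa V, kappa probe sets that name V with J or constant segments, and Ighmbp2. The WT KLS columns are the reddest. On WT KLS 2, Igkv6-14 with Igkv6-15 is at 10.19 and Igkv10-96 with Igkj1 at 10.80. WT MEP 1 differs from the other MEP columns in the heavy chain and lambda rows.

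In KLS cells, immunoglobulin levels tended to lie lower on the TG arrays: the log2 difference was below 0 for 23 of the 29 probe sets (53.2% of all probe sets), with a median of -0.45 (-0.014 over all) and 7 probe sets past 2 fold toward lower (0.357% of all) and 0 past 2 fold toward higher (0.83%). Over the 15 probe sets that name 1 segment the median was only -0.12. For 14 of 29 both TG arrays lay below both WT arrays, which was so for 15.5% of all probe sets, and for 0 of 29 above them (12.5%). No probe set passed limma's test. Of the 29, 0 were called at an adjusted p under 0.05, as were 0 of all 35556 (0%), and 7 had an unadjusted p under 0.05, against 3.11% of all. In RNA of whole sorted fractions, fewer cells that transcribe a segment and less of its RNA per cell cannot be told apart.

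The kappa V segments held the largest differences. Igkv6-14 and Igkv6-15, close kappa V segments measured together (probe set 10545247), were at 6.54 and 4.96 on the TG KLS arrays, against 8.90 and 10.19 on the WT KLS arrays. The groups did not overlap, and the replicates of each group differed by over 1. The log2 difference was -3.80 ± 0.72 (SE; 95% interval -5.53 to -2.06), 13.9 fold lower in TG (limma, adjusted p = 1, unadjusted p = 0.0015). In MEP cells it was at 5.46 and 5.41 on TG MEP, against 6.54 and 4.98 on WT MEP arrays, with overlapping groups; the level stood out on both WT KLS arrays alone.

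Igkv10-96 with the joining segment Igkj1 (probe set 10545175) was at 7.59 and 6.21 on the TG KLS arrays, against 7.88 and 10.80 on the WT KLS arrays. WT KLS 2 stood 7.54 fold above WT KLS 1, which lay close to TG KLS 1, and 1 array thus carried most of the log2 difference of -2.44 ± 0.97 (SE; adjusted p = 1 by limma). Without WT KLS 2 the difference was -0.98, and without WT KLS 1 it was -3.90. The other Igkv10-96 probe set (10545173) did not show the high value: it was at 6.77 and 4.49 on the TG KLS arrays, against 6.62 and 6.21 on the WT KLS arrays, and the groups overlapped.

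Igkv1-133 and Igkv1-135 (probe set 10538871) were at 6.06 and 5.85 on the TG KLS arrays, against 8.15 and 7.88 on the WT KLS arrays, a log2 difference of -2.06 ± 0.32 (SE; 95% interval -2.83 to -1.28; limma, adjusted p = 0.819). Here the replicates lay close together, 0.21 apart in TG and 0.27 apart in WT. Igkv8-30 (probe set 10545233) was as even, at 5.36 and 5.66 on the TG KLS arrays, against 6.85 and 6.67 on the WT KLS arrays. Its difference was -1.25 ± 0.17 (SE; 95% interval -1.64 to -0.85), 2.37 fold lower in TG (limma, adjusted p = 0.786), and it had the smallest p of the 29. Leaving out any 1 KLS array gave -1.40 to -1.09 for Igkv8-30, -2.20 to -1.92 for Igkv1-133 with Igkv1-135 and -4.59 to -3.00 for Igkv6-14 with Igkv6-15.

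**Figure D2:**
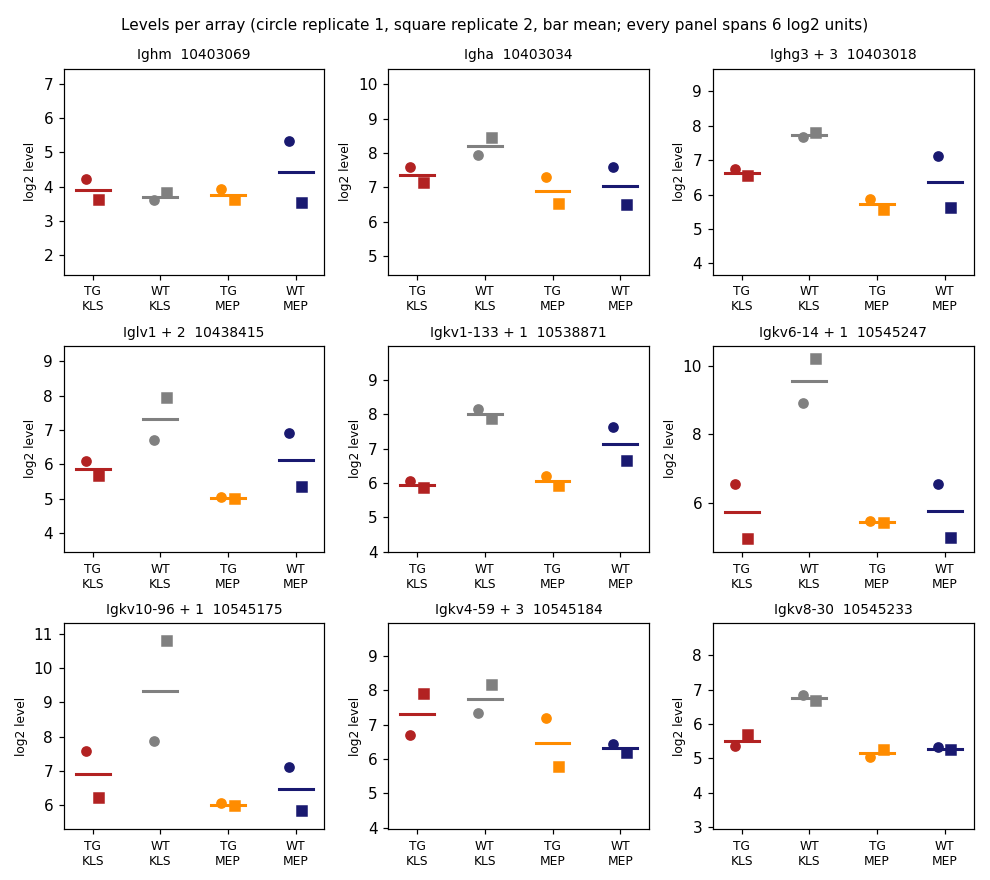
Log2 levels of 9 probe sets per array in TG KLS, WT KLS, TG MEP and WT MEP cells (circle replicate 1, square replicate 2, bar the mean of the 2). Where a name has several probe sets, the one with the widest range is plotted. Every panel spans 6 log2 units, but panels are centred apart, so heights are not comparable between panels. Igkv8-30 sits at 6.85 and 6.67 in WT KLS and between 5.03 and 5.66 on all other arrays, while Igkv10-96 with Igkj1 reaches 10.80 on 1 array.

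Not every kappa segment lay lower in TG KLS cells. Igkv5-43 (probe set 10545217) was at 6.38 and 4.72 on the TG KLS arrays, against 4.12 and 5.09 on the WT KLS arrays, with TG KLS 1 the highest of the 8 arrays, and its difference of 0.95 ± 0.58 (SE) had an unadjusted p of 0.152. Igkv19-93 was measured by 2 probe sets that disagreed in spread. One (10545177) ran from 6.25 to 8.04, highest on WT KLS 1, while the other (10545182) stayed between 6.67 and 6.88 on all 8 arrays. Igkv9-120 (0.12 ± 0.47), Igkv4-91 (-0.26 ± 0.27) and Igkv6-20 (0.0055 ± 0.19) had TG and WT KLS arrays that overlapped (log2 difference ± SE). Of the 12 kappa V probe sets, 8 had a difference below 0 in KLS cells, with a median of -0.19.

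The probe sets that name Igkv4-59, and Igkv4-55, followed another order of arrays. The 5 probe sets that name Igkv4-59, of which 4 also name the kappa constant region Igkc, averaged 6.31 and 7.43 on the TG KLS arrays, against 6.75 and 7.38 on the WT KLS arrays, and 6.74 and 5.82 on TG MEP, against 6.28 and 5.97 on WT MEP arrays. The replicate 2 arrays of both KLS groups were thus above the replicate 1 arrays, and TG MEP 1 above the other MEP arrays. The probe set with the widest range among them (10545184: Igkv4-59, Igkv4-70, Igkv4-80 and Igkc) was at 6.70 and 7.90 on the TG KLS arrays, against 7.34 and 8.15 on the WT KLS arrays, a difference of -0.45 ± 0.58 (SE). In Igkv4-55 (probe set 10545210) replicate 2 also lay above replicate 1 in both KLS groups. It was at 5.86 and 6.85 on the TG KLS arrays, against 5.98 and 6.42 on the WT KLS arrays, with TG KLS 2 the highest. Igkv4-91 (10545180), of the same V family, had replicate 1 above replicate 2 in both. It was at 4.58 and 3.90 on the TG KLS arrays, against 4.71 and 4.29 on the WT KLS arrays. The 12 kappa probe sets that do not name Igkv4-59 averaged 6.15 and 5.48 on TG KLS, against 6.53 and 6.77 on WT KLS arrays, so TG KLS 2 was lowest of the KLS arrays in these and, just above WT KLS 2, the highest in the Igkv4-59 group.

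Heavy chain constant regions had smaller extremes in KLS cells than kappa V segments, but not a smaller median. Their 6 probe sets ran from -0.85 to 0.20 with a median of -0.29. The 12 kappa V probe sets ran from -3.80 to 0.95 with a median of -0.19. Ighm, the constant region of IgM, was measured by 3 probe sets. One (10402864) was at 6.84 and 6.53 on the TG KLS arrays, against 6.99 and 7.30 on the WT KLS arrays, a difference of -0.46 ± 0.25 (SE) with groups that did not overlap. The second (10402991) was at 7.33 and 6.63 on the TG KLS arrays, against 6.93 and 6.97 on the WT KLS arrays, and the third (10403069) at 4.21 and 3.61 on the TG KLS arrays, against 3.60 and 3.82 on the WT KLS arrays, and both overlapped. Igha, the constant region of IgA, was measured by 2 probe sets, both without overlap between TG and WT, though they order the WT arrays differently. Probe set 10403034 was at 7.58 and 7.11 on the TG KLS arrays, against 7.95 and 8.43 on the WT KLS arrays, and 10403063 at 7.00 and 6.50 on the TG KLS arrays, against 7.64 and 7.36 on the WT KLS arrays. Their differences were -0.85 ± 0.44 and -0.75 ± 0.37 (SE), with adjusted p = 1 for both by limma. Ighg3 alone (10403046) stayed between 3.41 and 3.91 on all arrays.

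The 4 heavy chain probe sets that name V segments together with a constant region all name Igha, so they are not 4 separate measurements. All 4 probe sets lay lower in TG KLS cells without overlap, which held for 15.5% of all probe sets. That naming Ighg3, Igha, Ighv1-33 and Ighv1-26 (10403018) was at 6.75 and 6.53 on the TG KLS arrays, against 7.68 and 7.79 on the WT KLS arrays, a log2 difference of -1.09 ± 0.45 (SE). The other probe set with these 4 names (10403015) was at 6.48 and 6.25 on the TG KLS arrays, against 7.41 and 6.90 on the WT KLS arrays, at -0.79 ± 0.28. Igha with Ighv1-33 (10403021) and Ighv3-6 with Igha (10403009) had differences of -0.43 ± 0.27 and -1.02 ± 0.66. Ighv3-6 with Igha was high on 1 of the WT KLS arrays, at 3.39 and 3.61 on TG KLS, against 5.21 and 3.83 on WT KLS arrays.

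Lambda was measured by 2 probe sets that share the names Iglv1, Iglv2 and the constant region Iglc1. Probe set 10438415 was at 6.10 and 5.66 on the TG KLS arrays, against 6.71 and 7.93 on the WT KLS arrays, a log2 difference of -1.44 ± 0.58 (SE), and 10438405 at 7.57 and 7.12 on the TG KLS arrays, against 8.26 and 7.96 on the WT KLS arrays, a difference of -0.76 ± 0.65 (SE). Neither set of arrays overlapped, and neither difference passed limma's threshold (adjusted p = 1 for both). WT KLS 2 was 1.22 above WT KLS 1 in the first and 0.30 below it in the second, so the 2 probe sets order the WT arrays differently.

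Over the whole set, the mean log2 level of the 29 probe sets was 6.17 and 5.93 on the TG KLS arrays, against 6.59 and 6.79 on the WT KLS arrays. By locus it was 6.00 and 5.61 against 6.39 and 6.28 for the 10 heavy chain, 6.20 and 6.06 against 6.60 and 6.95 for the 17 kappa and 6.83 and 6.39 against 7.48 and 7.94 for the 2 lambda probe sets (TG against WT KLS arrays). Each of these means was lower on both TG arrays than on both WT arrays. With 1 KLS array left out, 19 to 24 of the 29 differences were below 0 and their median ran from -0.61 to -0.42.

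**Figure D3:**
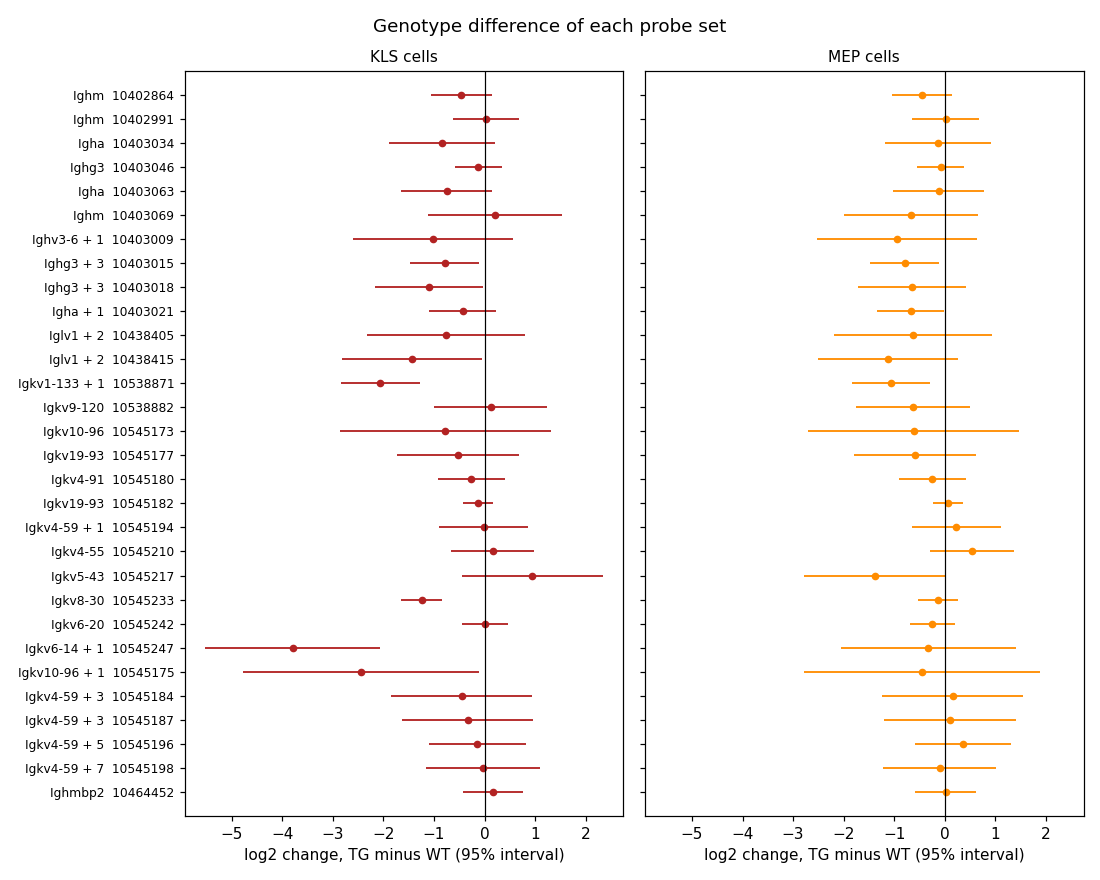
Log2 difference TG minus WT for each of the 30 probe sets (points) with its 95% interval from limma (bars), in KLS cells on the left and in MEP cells on the right. In KLS cells 23 of the 29 immunoglobulin points lie left of 0, down to -3.80 for Igkv6-14 with Igkv6-15, and in MEP cells 22 do, with most intervals including 0.

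In MEP cells the same comparison depended on which WT array was kept. The difference was below 0 for 22 of 29 probe sets (49.6% of all), with a median of -0.32 (0.0018 over all). Without WT MEP 1 it was below 0 for 12 of 29, with a median of 0.042, and 10 of the 29 differences changed sign. Without WT MEP 2 it was below 0 for 24 of 29, with a median of -0.77, and 2 changed sign. Each setting keeps 1 WT MEP array. For 7 of 29 both TG arrays lay below both WT arrays, which held for 16.5% of all probe sets, and for 1 of 29, Igkv4-55, both lay above (15.3%). Limma called 0 of 29 and 0 of all probe sets (0%), with 3 of 29 at an unadjusted p under 0.05 (3.07% of all).

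Igkv1-133 with Igkv1-135, lower in TG KLS cells above, had the smallest p in MEP cells, at 6.22 and 5.92 on the TG MEP arrays, against 7.63 and 6.65 on the WT MEP arrays. Its difference was -1.07 ± 0.32 (SE; adjusted p = 1 by limma), and -0.58 without WT MEP 1. Igkv5-43 was at 3.37 and 3.97 on the TG MEP arrays, against 5.25 and 4.85 on the WT MEP arrays, a difference of -1.38 ± 0.58 (SE), and -1.18 without WT MEP 1. Igkv4-55 was at 6.17 and 5.80 on the TG MEP arrays, against 5.34 and 5.55 on the WT MEP arrays, a difference of 0.54 ± 0.35 (SE), and 0.44 without WT MEP 1. Igkv8-30, at 5.03 and 5.25 on TG MEP, against 5.32 and 5.24 on WT MEP arrays, differed by -0.14 ± 0.17 (SE), and by -0.096 without WT MEP 1.

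The probe set of Igkv10-96 with Igkj1 was at 6.06 and 5.97 on the TG MEP arrays, against 7.11 and 5.83 on the WT MEP arrays, and that of Igkv10-96 alone at 4.45 and 4.49 on TG MEP, against 6.11 and 4.05 on WT MEP arrays. In both, WT MEP 1 was the highest MEP array and the groups overlapped. In the Igkv4-59 group the high MEP array was a TG one: probe set 10545184 was at 7.19 and 5.76 on the TG MEP arrays, against 6.44 and 6.18 on the WT MEP arrays, and 10545187, which bears the same names, at 6.80 and 5.67 on TG MEP, against 6.25 and 6.01 on WT MEP arrays. Probe set 10545194 (Igkv4-59 and Igkv4-80) was at 6.08 and 5.44 on TG MEP, against 5.69 and 5.37 on WT MEP arrays, and also had its highest MEP level on TG MEP 1.

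Most heavy chain and lambda probe sets were highest among the MEP arrays on WT MEP 1. Lambda probe set 10438405 was at 6.29 and 6.75 on the TG MEP arrays, against 8.25 and 6.05 on the WT MEP arrays, and its difference of -0.63 ± 0.65 (SE) was 0.47 without WT MEP 1. The other lambda probe set (10438415) was at 5.04 and 4.98 on the TG MEP arrays, against 6.91 and 5.35 on the WT MEP arrays, a difference of -1.12 ± 0.58 (SE), and -0.34 without that array. Ighm probe set 10403069 was at 3.92 and 3.61 on the TG MEP arrays, against 5.34 and 3.53 on the WT MEP arrays, and WT MEP 1 had the highest of its 8 levels; the difference was -0.67 ± 0.55 (SE), and 0.23 without WT MEP 1. Igha with Ighv1-33 (10403021; -0.68 ± 0.27) and Ighg3 with Igha, Ighv1-33 and Ighv1-26 (10403015; -0.79 ± 0.28) were lower on both TG arrays than on both WT arrays, and their differences without WT MEP 1 were -0.36 and -0.42. The other probe set with these 4 names (10403018) was at 5.88 and 5.55 on the TG MEP arrays, against 7.11 and 5.62 on the WT MEP arrays, and its difference of -0.65 ± 0.45 was 0.099 without WT MEP 1. Ighv3-6 with Igha (10403009) differed by -0.94 ± 0.66 (SE), and by -0.01 without that array. Igha alone was at 7.31 and 6.50 on TG MEP, against 7.59 and 6.48 on WT MEP arrays (10403034).

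Averaged over both cell types, the TG minus WT difference was below 0 for 25 of 29 probe sets (50.7% of all), with a median of -0.44 (-0.0025 over all). Only Igkv1-133 with Igkv1-135 had all 4 TG arrays below all 4 WT arrays, 1 of 29 against 0.903% of all probe sets, with an average difference of -1.56 ± 0.23 (SE; 95% interval -2.11 to -1.02; limma, adjusted p = 0.999). For 0 of 29 all TG arrays lay above (0.616% of all). Limma called 0 of 29 and 0 of all (0%), with 8 of 29 at an unadjusted p under 0.05 (3.32% of all). Without WT MEP 1 the median was -0.16, and without WT MEP 2 it was -0.65.

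Whether the genotype difference itself differed between KLS and MEP cells was tested as an interaction. Limma called 0 of 29 and 0 of all probe sets (0%), and 3 of 29 had an unadjusted p under 0.05 (2.77% of all). These were Igkv8-30, whose difference in KLS minus that in MEP cells was -1.11 ± 0.23 (SE; unadjusted p = 0.00261 and adjusted p = 1 by limma), Igkv6-14 with Igkv6-15 at -3.47 ± 1.02 and Igkv5-43 at 2.33 ± 0.83. Igkv5-43 had opposite signs, at 0.95 ± 0.58 in KLS and -1.38 ± 0.58 in MEP cells. Its KLS groups overlapped, however, and without TG KLS 1 the KLS difference was 0.11. This probe set is also dim, with a mean of 4.72 over all arrays, among the dimmest 30% of probe sets.

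Between the cell types, immunoglobulin probe sets tended to be higher in KLS than in MEP cells. The KLS minus MEP difference was above 0 for 25 of 29 and below 0 for 4, where 50.3% of all probe sets were below 0. The median was 0.66 (-0.0013 over all probe sets), and 6 were past 2 fold (1.08% of all). Over all probe sets limma called 1, Hlf, a transcription factor of blood stem cells, as higher in KLS (0.00281%) and 0 as lower (0%), and 0 of the 29. At an unadjusted p under 0.05 there were 11 of 29, against 11.2% of all. Igkv8-30 was the 1 of 29 with all 4 KLS arrays above all 4 MEP arrays (3.51% of all), and 0 had all below (4.03%).

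Igkv8-30 was at 5.36 and 5.66 on TG KLS and 6.85 and 6.67 on WT KLS arrays, against 5.03 and 5.25 on TG MEP and 5.32 and 5.24 on WT MEP arrays. The gap between the nearest KLS and MEP arrays, TG KLS 1 and WT MEP 1, was small, and most of the difference lay in WT cells. The averaged difference was 0.93 ± 0.12 (SE; 95% interval 0.65 to 1.21). Its call depends on which probe sets are fitted. Over all 35556 the adjusted p was 0.141, and over the 23410 with a gene symbol it was 0.0362 and called, where 0.252% of probe sets were called higher in KLS and 0.0555% lower. With 1 array left out of the fit over all probe sets, the difference ran from 0.85 to 1.00.

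The other probe sets with the smallest p were of the heavy chain and kappa loci. Ighg3 with Igha, Ighv1-33 and Ighv1-26 (10403015) differed by 0.85 ± 0.20 (SE; adjusted p = 0.207), Ighm (10402864) by 0.66 ± 0.18 and Igkv6-14 with Igkv6-15 by 2.05 ± 0.51. By class, the median KLS minus MEP difference was 0.27 over the 6 heavy chain constant probe sets, 0.76 over the 4 heavy chain mixed ones, 0.96 over the 2 lambda, 0.40 over the 12 kappa V and 0.91 over the 5 kappa probe sets that add J or constant segments. Igha (10403034) differed by 0.80 ± 0.31, lambda 10438415 by 1.03 ± 0.41, Igkv10-96 with Igkj1 by 1.88 ± 0.69 and the Igkv4-59 probe set 10545184 by 1.13 ± 0.41 (SE). Igkv6-14 with Igkv6-15 was high on the WT KLS arrays alone, with TG KLS 2 at 4.96 below all 4 MEP arrays. Among the differences near 0 were those of Ighm probe set 10402991 (0.0034 ± 0.19), Ighg3 alone (-0.008 ± 0.14) and the even Igkv19-93 probe set 10545182 (-0.044 ± 0.088). The mean over the 29 was 6.17 and 5.93 on TG KLS and 6.59 and 6.79 on WT KLS arrays, against 5.65 and 5.43 on TG MEP and 6.30 and 5.50 on WT MEP arrays. WT MEP 1 thus lay within the range of the KLS arrays. Without it, 28 of 29 differences were above 0 with a median of 0.81, and without WT MEP 2 there were 23 with a median of 0.49.

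**Figure D4:**
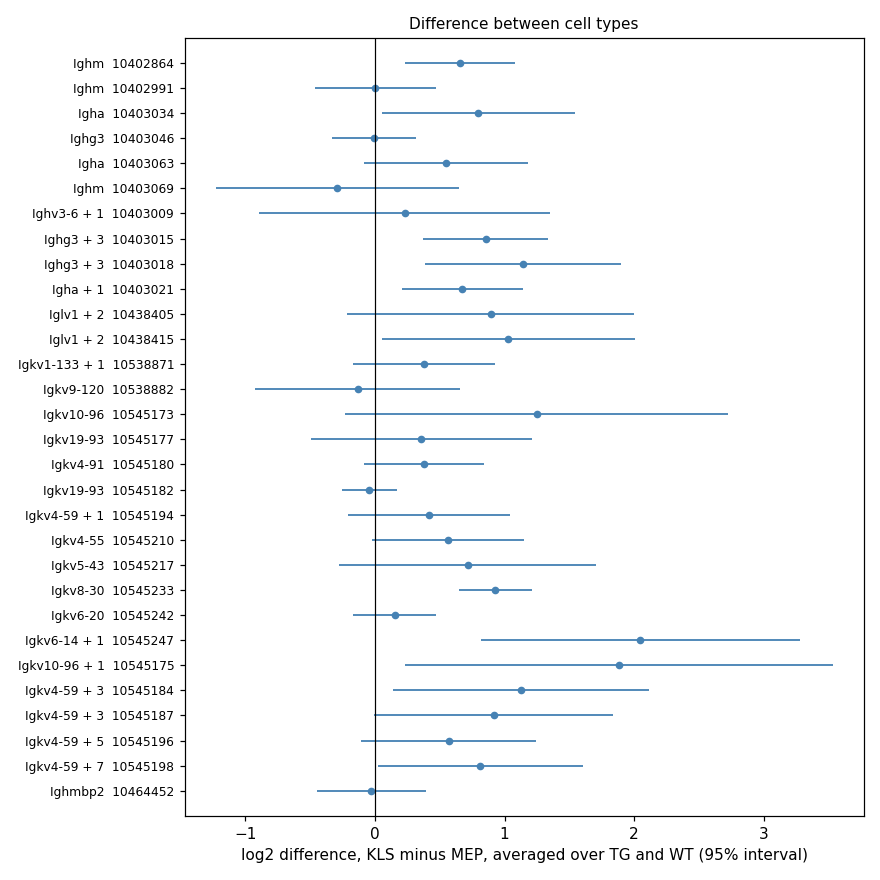
Log2 difference KLS minus MEP, averaged over TG and WT, for each of the 30 probe sets (points) with its 95% interval from limma (bars). Of the 29 immunoglobulin points 25 lie right of 0, and Igkv8-30 combines a difference of 0.93 with a narrow interval, while Igkv6-14 with Igkv6-15 (2.05) and Igkv10-96 with Igkj1 (1.88) have wide ones.

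Genes that act with the segments were followed in lists. In each of the 4 lists of this kind, limma called 0 members in either direction in every comparison. Of 12 pre-B and B cell receptor partners, 11 had a TG minus WT difference below 0 in KLS cells (median -0.22). In MEP cells 11 did (median -0.82, and -0.085 without WT MEP 1 or -1.56 without WT MEP 2). Cd79b, a signalling chain of the B cell receptor, was at 8.18 and 7.41 on TG KLS, against 8.32 and 7.89 on WT KLS arrays, and at 6.56 and 7.02 on TG MEP, against 9.84 and 7.15 on WT MEP arrays. Igll1, part of the surrogate light chain that pairs with the heavy chain before light chains are made, was at 8.61 and 8.34 on TG KLS, against 9.03 and 8.39 on WT KLS arrays, and at 7.21 and 7.72 on TG MEP, against 9.81 and 7.47 on WT MEP arrays. Both were highest of all 8 arrays on WT MEP 1.

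Of 15 B lineage transcription factors, 14 had a difference below 0 in KLS cells (median -0.24). In MEP cells 14 did (median -0.71, and -0.026 without WT MEP 1 or -1.42 without WT MEP 2). Pax5, which commits cells to the B lineage, was at 6.86 and 7.15 on TG KLS, against 7.78 and 7.51 on WT KLS arrays, and at 6.70 and 6.72 on TG MEP, against 8.64 and 6.72 on WT MEP arrays. In the recombination machinery, 6 of 11 genes had a difference below 0 in KLS cells (median -0.012). Rag1 was at 7.88 and 7.62 on TG KLS, against 8.47 and 7.77 on WT KLS arrays, and at 7.31 and 7.37 on TG MEP, against 9.99 and 7.46 on WT MEP arrays. Dntt, the polymerase that adds bases at the joints, was at 9.71 and 9.45 on TG KLS, against 9.95 and 9.61 on WT KLS arrays, and at 6.75 and 7.21 on TG MEP, against 9.50 and 7.17 on WT MEP arrays. Of 5 measured class switch and hypermutation genes 2 were below 0 in KLS cells (median 0.058). The smallest p among them was that of Msh6, a mismatch repair gene, at 0.13 ± 0.13 (TG minus WT in KLS cells, SE).

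Marker lists of cells that could lie in the sorted fractions moved with the immunoglobulin levels to different extents. The 11 measured B cell markers averaged 6.43 and 6.37 on TG KLS, against 6.68 and 6.98 on WT KLS arrays, and 6.06 and 6.01 on TG MEP, against 7.43 and 6.12 on WT MEP arrays, with 10 of 11 below 0 in TG KLS cells. The 12 pro-B and pre-B genes averaged 8.28 and 8.25 on TG KLS, against 8.77 and 8.33 on WT KLS arrays, with 12 of 12 below 0. Plasma cell genes averaged 6.53 and 6.20 on TG KLS, against 6.63 and 6.55 on WT KLS arrays, with 7 of 10 below 0 and a median difference of -0.089. Among them Jchain, which joins IgM and IgA units into polymers, was at 7.89 and 7.58 on TG KLS, against 8.93 and 9.67 on WT KLS arrays, and at 4.75 and 5.37 on TG MEP, against 6.55 and 5.03 on WT MEP arrays. Its TG minus WT difference in KLS cells was -1.57 ± 0.52 (SE, with unadjusted p = 0.0214 and adjusted p = 1 by limma). Jchain was highest on WT KLS 2, as were Igkv6-14 with Igkv6-15 and Igkv10-96 with Igkj1. Igkv10-96 alone (10545173) was highest on TG KLS 1, and the mean of the plasma cell list on WT KLS 1. Sdc1, the plasma cell antigen CD138, was at 6.14 and 5.68 on TG KLS, against 6.10 and 6.19 on WT KLS arrays.

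Plasmacytoid dendritic cell genes averaged 7.17 and 7.00 on TG KLS, against 7.32 and 7.34 on WT KLS arrays, with 5 of 7 below 0. T cell genes averaged 5.96 and 5.92 on TG KLS, against 6.09 and 6.01 on WT KLS arrays, with 11 of 12 below 0 and a median difference of -0.13. NK cell genes averaged 5.95 and 5.64 on TG KLS, against 5.80 and 5.87 on WT KLS arrays, with 5 of 8 below 0. Mature neutrophil genes averaged 9.98 and 9.86 on TG KLS, against 9.77 and 10.78 on WT KLS arrays, and 8.54 and 8.52 on TG MEP, against 10.16 and 9.31 on WT MEP arrays, with 12 of 12 below 0 in both cell types, though their mean on WT KLS 1 lay below both TG KLS arrays. Without WT MEP 1 the neutrophil list still had 12 of 12 below 0 in MEP cells, with a median of -0.75. The B cell list then had 6 of 11 with a median of -0.0012, and the early B list 9 of 12 with -0.033. Without WT MEP 2 the medians were -1.74 for the neutrophil, -1.41 for the B cell and -2.43 for the early B list. WT KLS 2, with the highest levels of 8 of the 29 immunoglobulin probe sets (13.0% of all probe sets), was the highest in the neutrophil list. WT KLS 1, with the highest levels of 9 of 29 (16.1% of all), was the lowest KLS array in that list. WT MEP 1 was highest in the early B and B cell lists. Its immunoglobulin mean of 6.30 lay above the other MEP arrays (5.43 to 5.65) and below both WT KLS arrays. The part of any of these cells in the immunoglobulin differences was not tested.

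**Figure D5:**
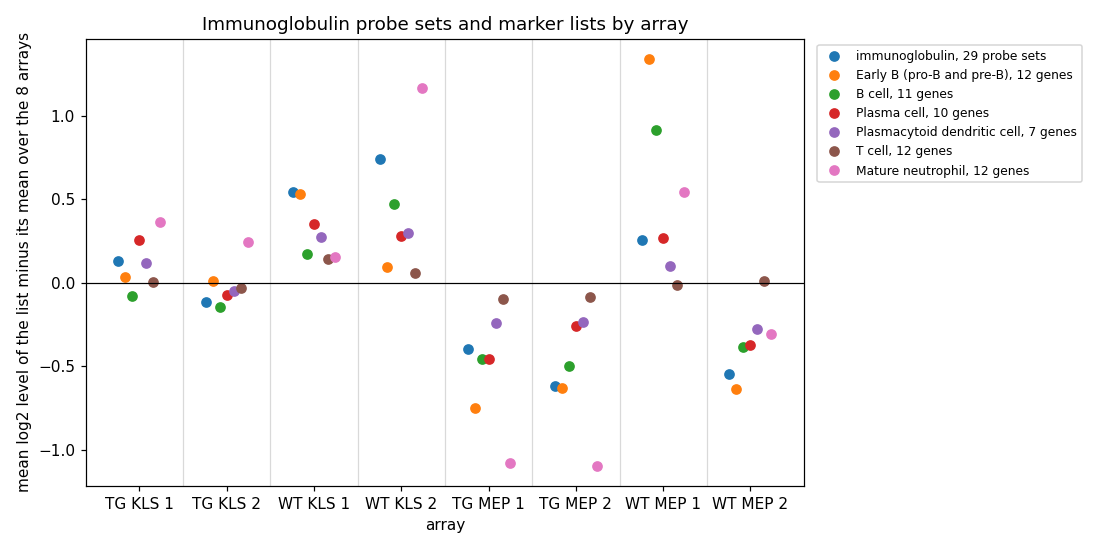
Mean log2 level of the 29 immunoglobulin probe sets and of 6 marker lists on each array, minus the mean of that list over the 8 arrays. Early B and B cell genes peak on WT MEP 1, mature neutrophil genes on WT KLS 2, and the immunoglobulin mean is highest on WT KLS 2 and WT KLS 1 (6.79 and 6.59).

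Ighmbp2, the helicase gene set apart above, stayed between 5.96 and 6.72 over the 8 arrays. It was at 6.56 and 6.46 on TG KLS, against 6.72 and 5.96 on WT KLS arrays, and at 6.38 and 6.54 on TG MEP, against 6.38 and 6.50 on WT MEP arrays, with a TG minus WT difference of 0.17 ± 0.25 in KLS and 0.015 ± 0.25 in MEP cells (SE). Its groups overlapped in both.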

How the data were processed

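The submitters' processing notes name Affymetrix Expression Console, with no version, and the sources used here do not state the background correction, normalization or summarization. The values the authors deposited run from 1.71 to 14.0 and were taken as log2. Precision is limited by the number of arrays. Because the 8 medians spanned 0.106, above the limit of 0.1, arrays were quantile normalized over all 35556 probe sets. Each probe set was fitted singly by limma (version 3.58.1, under R 4.3.3; moderated variances) with 1 mean per group, 4 residual and 2.49 prior degrees of freedom. Tests were two-sided, with Benjamini-Hochberg adjustment over all probe sets. P-values set a difference against the spread between RNA preparations within groups, moderated over all probe sets. The array titles do not say whether KLS and MEP preparations of 1 genotype and number came from the same mice. All preparations were fitted as independent.

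The platform annotation named 1 gene for 21789 probe sets, several for 1621 and none for 12146, which stayed in the fit. All 29 segment symbols matched RefSeq by Entrez identifier. The planned class of mixed segments was divided by locus. A planned motif search in segment promoters was not run, since the reference used here holds a promoter sequence for 0 of the segments. Probe sets were named by the smallest p (5 in each direction and comparison), by the largest range over arrays (10), and all constant and J region probe sets. List genes stand with 1 probe set each. The procedure was tested on simulated data. The members, lists and tests were chosen with earlier results of these data known. Alternatives are given at the end.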

Additional observations from a re-analysis of the deposited data

How the results depend on the processing

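The number of immunoglobulin probe sets called stayed at 0 in each genotype comparison and in the interaction under the deposited scale, median centring, a filter on the dimmest 30% (which 21 of the 29 passed), other sets of probe sets, a variance trend, robust variances, array weights, an adjusted p under 0.10, a 2-fold minimum, 1 cell type alone and each array left out. Between cell types it was 0, and 1 (Igkv8-30) with only probe sets that have a symbol or exactly 1 symbol (0.93 in both; adjusted p = 0.0362 and 0.0185); these fits hold fewer probe sets and have 3.46 and 4.27 prior degrees of freedom. Correlations of same-numbered deviations between groups ran from -0.37 to 0.39. They were positive among TG KLS, WT KLS and WT MEP (0.16 to 0.39) and negative between each of these and TG MEP (-0.37 to -0.22). With the replicate number as a block, 0 of 29 were called in each comparison, with a median difference of -0.45 in KLS and -0.32 in MEP cells. That fit keeps the numbers as labelled, so it does not address an order that runs the other way in TG MEP.

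The median difference in KLS cells was -0.12 over the 15 probe sets with 1 symbol, against -0.45 over all 29. The kappa V mean difference in KLS cells was -1.09 over the 7 that passed the filter. Both settings leave out probe sets. With each array left out in turn, the median in MEP cells ran from -0.77 to 0.042 and that of the interaction from -0.40 to 0.16. With 1 array left out, 14 of the 29 differences in KLS cells changed sign under at least 1 of the 4 settings, 16 of 29 in MEP cells, and 6 of 29 between cell types under at least 1 of 8. They include, in KLS cells, Igkv10-96 10545173 (-0.78, and 0.36 without TG KLS 2), Igkv19-93 10545177 (-0.53, and 0.25 without WT KLS 1) and Igkv4-59 10545184 (-0.45, and 0.15 without TG KLS 1). In MEP cells, leaving out WT MEP 1 turned 10, among them both Igha probe sets (0.42 and 0.39), Ighm 10403069 (0.23), lambda 10438405 (0.47), Igkv9-120 (0.10), Igkv10-96 10545173 (0.42), Igkv10-96 with Igkj1 (0.19) and Igkv6-14 with Igkv6-15 (0.45). Further ranges that cross 0 were, for TG minus WT in KLS cells, -0.095 to 0.50 (Ighm 10403069), -0.21 to 0.55 (Ighmbp2), -0.34 to 0.66 (Igkv4-55) and -0.18 to 0.42 (Igkv9-120). In MEP cells they were -0.0019 to 0.13 (Igkv19-93 10545182), -0.55 to 0.87 (Igkv4-59 10545184) and -0.093 to 0.55 (Igkv4-59 10545194). Averaged over both they were -0.15 to 0.20 (Ighm 10402991), -0.096 to 0.28 (Ighmbp2), -0.14 to 0.36 (Igkv4-59 10545196) and -0.14 to 0.36 (10545194). For the interaction they were -0.076 to 0.57 (Igha 10403021) and -0.031 to 1.78 (Ighm 10403069). For KLS minus MEP they were -0.13 to 0.12 (Ighg3), -0.74 to 0.16 (Ighm 10403069), -0.22 to 0.16 (Ighmbp2, 0.0066 as deposited) and -0.50 to 0.23 (Igkv9-120). The cause was not tested. Probe sets of several segments share sequence, and how the probes split such transcripts is not known here.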

Other observations

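Besides the 29, 2 probe sets name the kappa V segments Igkv9-120, Igkv1-117 and Igk-V21 together with Map3k20, a kinase gene, and so fell outside the symbol rule. Probe set 10538880 was at 6.30 and 6.52 on the TG KLS arrays, against 8.53 and 4.80 on the WT KLS arrays, and at 3.27 and 3.16 on the TG MEP arrays, against 6.62 and 3.61 on the WT MEP arrays. Probe set 10538921 was at 8.18 and 6.44 on the TG KLS arrays, against 9.79 and 5.84 on the WT KLS arrays, and at 5.50 and 6.37 on the TG MEP arrays, against 7.65 and 5.32 on the WT MEP arrays. In both, WT KLS 1 had the highest of the 8 levels and WT KLS 2 a level below both TG KLS arrays, the reverse of the order of these WT arrays for Igkv6-14 with Igkv6-15. Neither was called in any comparison by limma (adjusted p from 0.422 to 1).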
